A study of Rattus norvegicus with 36 samples.

Results

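Whole lungs of Brown Norway rats at postnatal day 14 (PN14) were compared with whole lungs of Fisher rats of the same age, with 4 arrays in each group. These 8 arrays were taken by the strain and age in their titles from a series of 36, which also holds Lewis rats and the ages PN1 and PN7. The series set out to describe how inherited differences between rat strains shape the expression of genes in the growing lung, as a background to asthma. The labels give no treatment, no transgene and no sex, and they do not say that replicates came from separate animals or whether animals were pooled, and the p-values below cover the array-to-array spread alone, part or all of which may be technical.

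Brown Norway rats are the strain most often used as a rat model of allergic airway inflammation. In the rat, much of the lung's gas exchange surface forms after birth, when walls grow out and divide the air spaces into alveoli while airway epithelium, vessels, matrix and immune cells mature. A whole-lung array reads all of these cells together, so fewer cells of a type and less RNA per cell cannot be told apart.

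The 8 arrays lay on 1 beadchip slide and detected between 9568 and 10058 of 22226 probes at a detection p under 0.01. All values below are log2 normalized intensities, in which background reads as about 8 and the brightest probes as about 16. The array labelled Brown Norway PN14 replicate 3 correlated at 0.975 with the mean of the other Brown Norway PN14 arrays and at 0.994 with that of the Brown Norway PN1 arrays, taken without their replicate 5, while the other 3 arrays of its group correlated at 0.995 to 0.997 with their own mean. The array labelled Brown Norway PN1 replicate 5 lay on the same slide as the PN14 arrays and correlated at 0.997 with the mean of the 3 other Brown Norway PN14 arrays, but at 0.974 with that of the other PN1 arrays of its strain. Both arrays thus go against their labels, as an exchange of the labels would give, which was not tested. Both were kept under their labels. Counts are given with and without PN14 replicate 3, and the call of a gene named below held without it unless that is said. The lung's own markers were present: Sftpc, the surfactant protein of alveolar type II cells, read 14.23, 14.34, 14.52 and 14.08 in Brown Norway and 14.33, 14.35, 14.36 and 14.40 in Fisher. Ager, a marker of alveolar type I cells, read 13.59 to 14.15 in Brown Norway and 13.75 to 13.85 in Fisher. Neither passed the test (adjusted p = 0.777 and 0.562 in limma). Scgb1a1, the main secretory protein of club cells, read 16.01 to 16.08 in Brown Norway and 16.06 on each Fisher array, close to the top of the scale, where differences cannot be seen. Pecam1 and Acta2, which mark endothelium and smooth muscle, have no named probe here.

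Of 11339 tested probes, 1419 (12.5%) passed limma at an adjusted p under 0.05 between Brown Norway and Fisher lungs, 633 (5.58%) higher and 786 (6.93%) lower in Brown Norway. Without replicate 3, 1314 of 11330 probes (11.6%) passed, 637 (5.62%) higher and 677 (5.98%) lower. Median scaling of the arrays in place of quantile normalization gave 314 higher and 331 lower with all arrays, and 615 higher and 242 lower without replicate 3, so that the balance of directions depends on the scaling. Both tests called 1087 probes (9.59%) with the same sign, 519 (4.58%) higher and 568 (5.01%) lower, while 332 (2.93%) passed only with replicate 3 and 227 (2%) only without it. Most of these differences were small: 63 probes (0.556%) were at least 2-fold higher and 49 (0.432%) at least 2-fold lower with all arrays, and 73 (0.644%) and 44 (0.388%) without replicate 3. All 4 Brown Norway arrays lay above all 4 Fisher arrays in 886 probes (7.81%) and below them in 1091 (9.62%).

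The large differences were also present on the arrays of the younger ages. Those arrays do not enter the PN14 group means, but they share the normalization, the probe filter and the estimate of spread. The same probe reads a gene at each age. Of the 108 probes at least 2-fold apart that passed with and without replicate 3, 96.3% passed with the same sign at PN7, where 16.5% of all probes passed, and 98.1% at PN1, where 33.4% passed. Passing with the opposite sign was seen for 0 of them at either age. Without PN1 replicate 5 and PN14 replicate 3 in the fit, 100% of the 108 passed at PN1 with the same sign, where 40.3% of all probes passed. The dimmer strain was detected on 0 arrays for 10 of the 108.

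**Figure D1:**
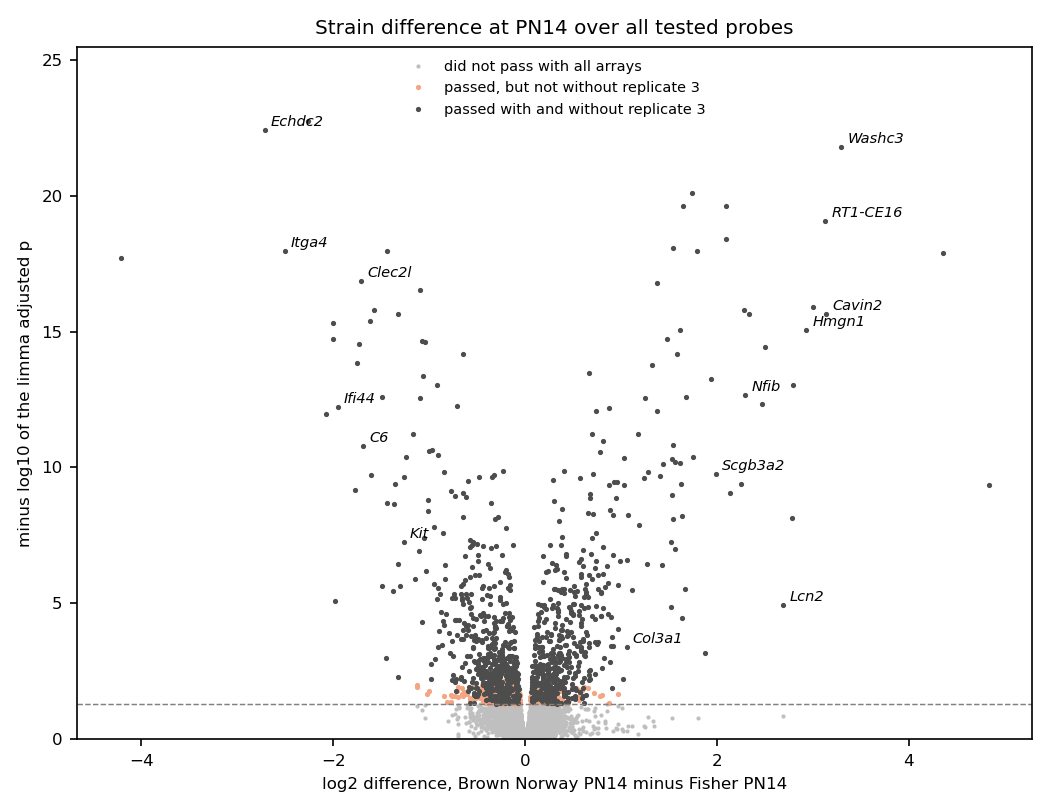
Each point is 1 of 11339 tested probes. The horizontal axis is the log2 difference, Brown Norway PN14 minus Fisher PN14, and the vertical axis is minus log10 of the limma adjusted p, with the threshold as a dashed line. Dark points passed with and without Brown Norway PN14 replicate 3, orange points passed only with it, and 14 of the genes described here are labelled.

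Washc3, Cavin2 and RT1-CE16 led the named genes that were higher in Brown Norway lungs, each by more than 8-fold. Washc3 encodes a subunit of the WASH complex, which builds actin on endosomes. It read 11.73, 11.55, 11.76 and 11.42 in Brown Norway and 8.20, 8.29, 8.43 and 8.36 in Fisher, a difference of 3.30 (SE 0.09, adjusted p = 1.65e-22). Cavin2, a coat protein of caveolae, the small pits of endothelial and other membranes, read 12.46, 12.52, 11.89 and 12.26 in Brown Norway and 9.09, 9.17, 9.08 and 9.24 in Fisher, 8.81-fold apart (SE of the log2 difference 0.15, adjusted p = 2.22e-16). For both genes the strains were separated by more than 2 log2 units with no overlap. The other 7 measured genes of the caveolae list did not pass, with or without replicate 3.

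Hmgn1, a protein that binds nucleosomes, was bright in both strains, at 14.16, 14.14, 14.37 and 14.21 in Brown Norway and 11.22, 11.17, 11.33 and 11.44 in Fisher (7.62-fold, adjusted p = 8.92e-16). Nfib, a transcription factor required for the lung to mature before birth, read 13.21, 13.30, 13.13 and 13.24 in Brown Norway and 11.18, 10.73, 10.98 and 10.80 in Fisher (4.91-fold, adjusted p = 2.24e-13). The Fisher arrays of Nfib spread more than the Brown Norway ones, and both groups stayed apart by far more than that spread. The splicing factor gene Cd2bp2 was 4.88-fold higher, the organic anion transporter gene Slco1a5 5.56-fold and Lrrc42 3.35-fold higher. Ly6i, one of the Ly6 surface proteins, was 6.96-fold higher with all arrays and 7.89-fold higher without replicate 3.

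The probes of several genes were detected in 1 strain alone. The 30 leading genes are the highest and lowest named genes that passed with and without replicate 3. Of these, 0 have more than 1 probe on the array, so each of their differences rests on 1 probe. Whether the strains' sequences differ under these probes was not tested. Ankra2, an ankyrin repeat protein, read 10.10, 10.34, 10.11 and 10.10 in Brown Norway and 8.05 to 8.08 in Fisher with 0 arrays detected, and was at least 4.05-fold higher. Pxmp4, a protein of the peroxisome membrane, was at least 4.13-fold higher, at 10.06, 10.18, 10.30 and 10.22 in Brown Norway against 8.07 to 8.12 in Fisher with 0 arrays detected. In the opposite direction Echdc2, an enzyme related to those of fatty acid breakdown, read 8.14, 8.10, 8.05 and 8.18 in Brown Norway, with 0 arrays detected, and 10.81, 10.79, 10.90 and 10.83 in Fisher. It was at least 6.4-fold lower in Brown Norway (adjusted p = 3.96e-23), the lowest of the named genes. Over all tested probes, 52 (0.459%) were detected on every Brown Norway array and on 0 Fisher arrays, and 45 (0.397%) on every Fisher array and on 0 Brown Norway arrays.

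**Figure D2:**
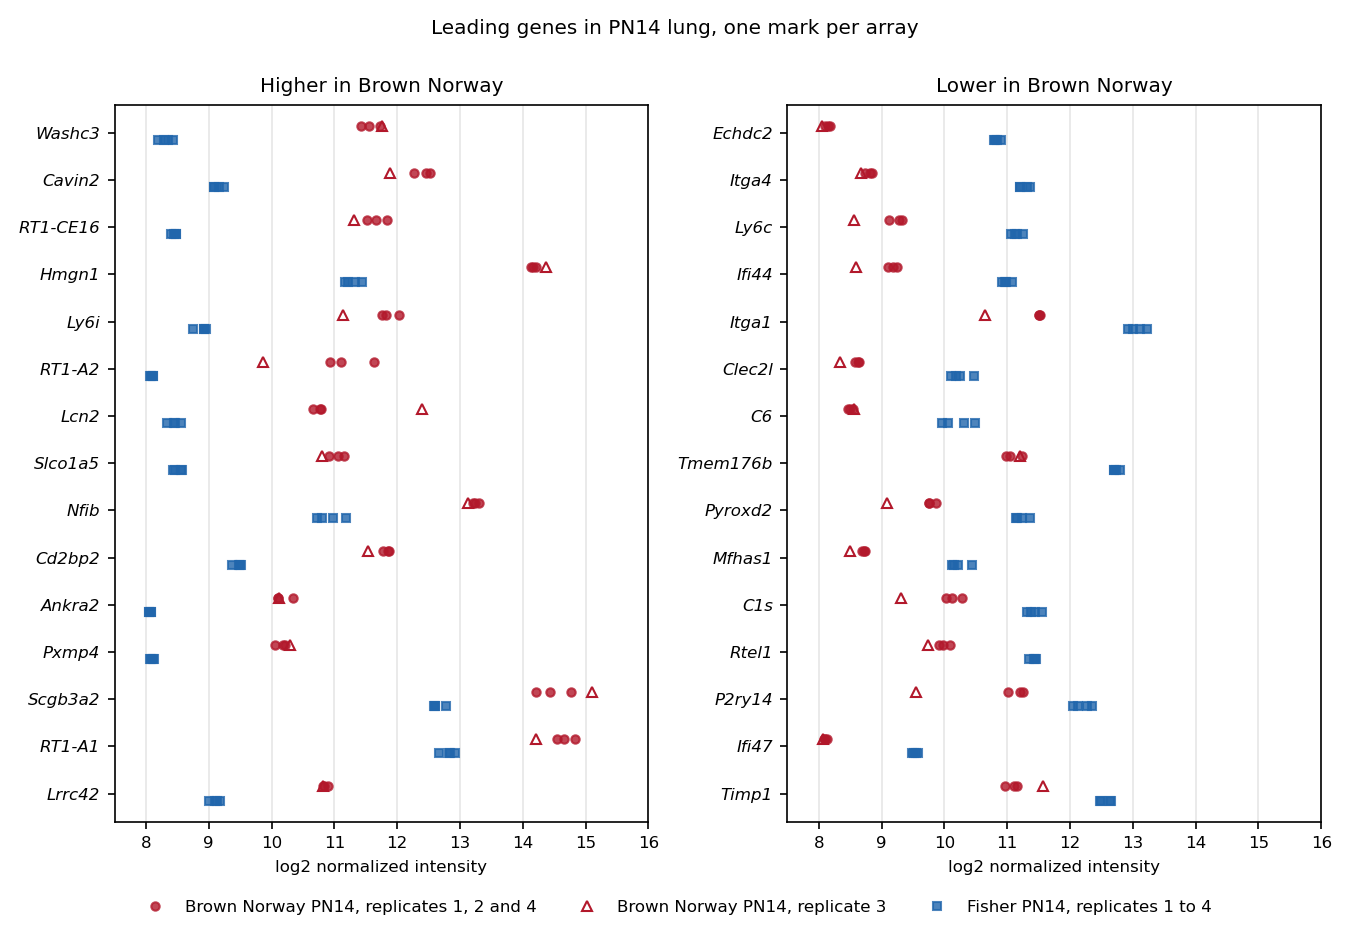
Each mark is 1 array, on a horizontal axis of log2 normalized intensity. Brown Norway PN14 is in red with replicate 3 as an open triangle, and Fisher PN14 is in blue below it, for the 15 highest (left) and 15 lowest (right) named genes that passed with and without replicate 3. The strains do not overlap in any of the 30 genes, and replicate 3 stands off the other Brown Norway arrays in several, among them Lcn2, RT1-A2, P2ry14 and Itga1.

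Itga4, the integrin chain with which lymphocytes, monocytes and eosinophils leave the vessels, read 8.81, 8.74, 8.67 and 8.84 in Brown Norway and 11.21, 11.31, 11.37 and 11.20 in Fisher (5.68-fold lower, SE of the log2 difference 0.09, adjusted p = 1.11e-18). Itga1, part of a collagen receptor, read 11.53, 11.50, 10.64 and 11.50 in Brown Norway and 12.92 to 13.23 in Fisher (3.42-fold lower, adjusted p = 6.84e-10). Replicate 3 was the lowest Brown Norway array in both genes, and the differences without it were -2.48 and -1.55. The membrane protein gene Tmem176b and the oxidoreductase gene Pyroxd2 were 3.07-fold and 3.05-fold lower, and the telomere helicase gene Rtel1 was 2.81-fold lower. Timp1, an inhibitor of matrix metalloproteinases, was 2.58-fold lower (adjusted p = 2.17e-09), and Mfhas1 2.97-fold lower.

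P2ry14, a receptor for nucleotide sugars, moved with replicate 3. It read 11.25, 11.02, 9.54 and 11.21 in Brown Norway and 12.28, 12.05, 12.12 and 12.36 in Fisher. The difference was -1.45 (adjusted p = 0.00104) with all arrays and -1.04 (adjusted p = 0.00728) without replicate 3.

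Antigen presentation by class I molecules differed gene by gene. Class I molecules show peptides from inside the cell to T cells and are loaded by the TAP transporter with the help of tapasin. In a list of 24 tested class I presentation genes, 7 passed higher and 3 lower in Brown Norway, and without replicate 3 8 were higher and 2 lower. Over all 8063 named genes, 438 (5.43%) passed higher and 562 (6.97%) lower. These shares are the background for the count of every list below, and without replicate 3 they were 5.61% and 6.02%. The median difference of the class I list was -0.03, beside -0.01 over all named genes, and 0.08 without replicate 3.

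The class I heavy chain gene RT1-CE16 read 11.52, 11.84, 11.32 and 11.66 in Brown Norway and 8.45, 8.48, 8.41 and 8.47 in Fisher (8.78-fold, adjusted p = 8.8e-20). RT1-A1, a gene of the classical class Ia region, read 14.65, 14.83, 14.22 and 14.55 in Brown Norway and 12.83, 12.93, 12.66 and 12.84 in Fisher (3.36-fold, adjusted p = 4.01e-11). RT1-A2 was detected on every Brown Norway array, at 11.10, 11.63, 9.86 and 10.93, and on 0 Fisher arrays, at 8.06 to 8.12, and was at least 6.66-fold higher. In all 3 genes the groups were far apart and replicate 3 was the lowest Brown Norway array. RT1-T24-4 was 1.06 higher and RT1-CE5, detected on 0 Fisher arrays, at least 1.83-fold higher. The transporter gene Tap1 was 0.40 higher, while the differences of the tapasin gene Tapbp and of RT1-M3-1 were -0.54 and -0.50. B2m, the light chain shared by class I molecules, did not pass (-0.23). Many RT1 and Ly6 genes have near copies in the genome that 1 probe may read together, and the strains' sequences under the probes were not compared here.

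Interferon-induced genes that passed were lower in Brown Norway lungs, with 1 exception. Interferons switch on a set of antiviral genes through factors that bind GAAA repeats in their promoters. Of 32 tested interferon response genes, 12 passed lower and 1 higher, and 8 and 0 without replicate 3. The list's median was -0.08 with all arrays and -0.04 without replicate 3, and 19 of its members did not pass. Median scaling of the arrays gave 9 lower and 0 higher.

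Ifi44 had the largest difference of the list. It read 9.24, 9.19, 8.59 and 9.10 in Brown Norway and 10.96, 11.07, 10.98 and 10.92 in Fisher (3.88-fold lower, adjusted p = 5.97e-13). Ifi47, a GTPase of cell-autonomous immunity, read 8.11, 8.09, 8.06 and 8.13 in Brown Norway, detected on 0 arrays, and 9.55, 9.59, 9.49 and 9.51 in Fisher, and was at least 2.62-fold lower. The groups did not overlap in either gene, and replicate 3 was the lowest Brown Norway array in both, further off in Ifi44. Ifi27 read 13.37, 13.39, 12.66 and 13.28 in Brown Norway and 14.29, 14.21, 14.18 and 14.16 in Fisher (2.05-fold lower, adjusted p = 6.44e-07). Mx2, a dynamin-like antiviral GTPase, read 8.43, 8.44, 8.34 and 8.64 in Brown Norway and 9.47, 9.71, 9.27 and 9.38 in Fisher (1.99-fold lower, adjusted p = 2.59e-11). Irf7, the transcription factor that amplifies the interferon response, differed by -0.48, and Dhx58 and Oas1a by -0.19 and -0.12, near the detection limit. Usp18, detected on 0 Brown Norway arrays and 2 Fisher arrays, was at least 1.04-fold lower. Gbp2, Lgals3bp, Mx1 and Cxcl10 passed lower only with replicate 3 included, and Ifitm1, a membrane protein that hinders virus entry, passed higher only with it (0.53).

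The promoters of 4 of the lower genes are shown because they carry the repeat GAAANNGAAA (N, any base) on either strand. The repeat is the core of the element that interferon regulatory factors bind. It occurred in the 250 bases before the start of 1140 (3.41%) of 33469 promoters of RefSeq's rat genes on the build GRCr8. Among the lower interferon genes 9 of 12 have an entry in that table, of which 7 carry the repeat, and among all tested interferon genes 15 of 23. Capitals mark the repeat, which reads TTTCNNTTTC where it lies on the other strand, and overlapping repeats run together. Ifi47 and Mx1 were the entries without it. Ifi44 is at chr2:243303841-243304090 on the minus strand, Ifi27 at chr6:128355062-128355311 on the plus strand, Irf7 at chr1:205800024-205800273 on the minus strand and Oas1a at chr12:41330216-41330465 on the plus strand.
Ifi44: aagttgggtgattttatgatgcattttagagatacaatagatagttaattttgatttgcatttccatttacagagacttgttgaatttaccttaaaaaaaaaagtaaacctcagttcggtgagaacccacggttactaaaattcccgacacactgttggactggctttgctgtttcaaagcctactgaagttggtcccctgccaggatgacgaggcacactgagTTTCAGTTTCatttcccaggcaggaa
Ifi27: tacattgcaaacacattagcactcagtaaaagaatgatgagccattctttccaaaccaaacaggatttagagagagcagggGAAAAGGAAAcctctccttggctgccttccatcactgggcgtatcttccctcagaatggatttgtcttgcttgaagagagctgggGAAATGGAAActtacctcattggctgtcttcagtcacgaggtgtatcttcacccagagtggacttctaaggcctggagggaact
Irf7: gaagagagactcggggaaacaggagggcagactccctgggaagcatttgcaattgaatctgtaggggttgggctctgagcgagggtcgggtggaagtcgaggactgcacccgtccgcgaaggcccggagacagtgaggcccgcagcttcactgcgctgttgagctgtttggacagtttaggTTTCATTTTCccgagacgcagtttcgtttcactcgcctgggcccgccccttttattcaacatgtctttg
Oas1a: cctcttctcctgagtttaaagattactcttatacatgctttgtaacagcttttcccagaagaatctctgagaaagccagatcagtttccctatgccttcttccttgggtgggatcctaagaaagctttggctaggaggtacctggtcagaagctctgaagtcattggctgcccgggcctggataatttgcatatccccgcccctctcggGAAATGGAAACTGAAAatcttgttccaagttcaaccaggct
The repeat ends 16 bases before the start in Ifi44, 25 in Oas1a, 59 in Irf7 and 74 in Ifi27, and Ifi27 and Oas1a carry 2 each. A match of letters describes the sequence and was not set against any binding data.

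**Figure D3:**
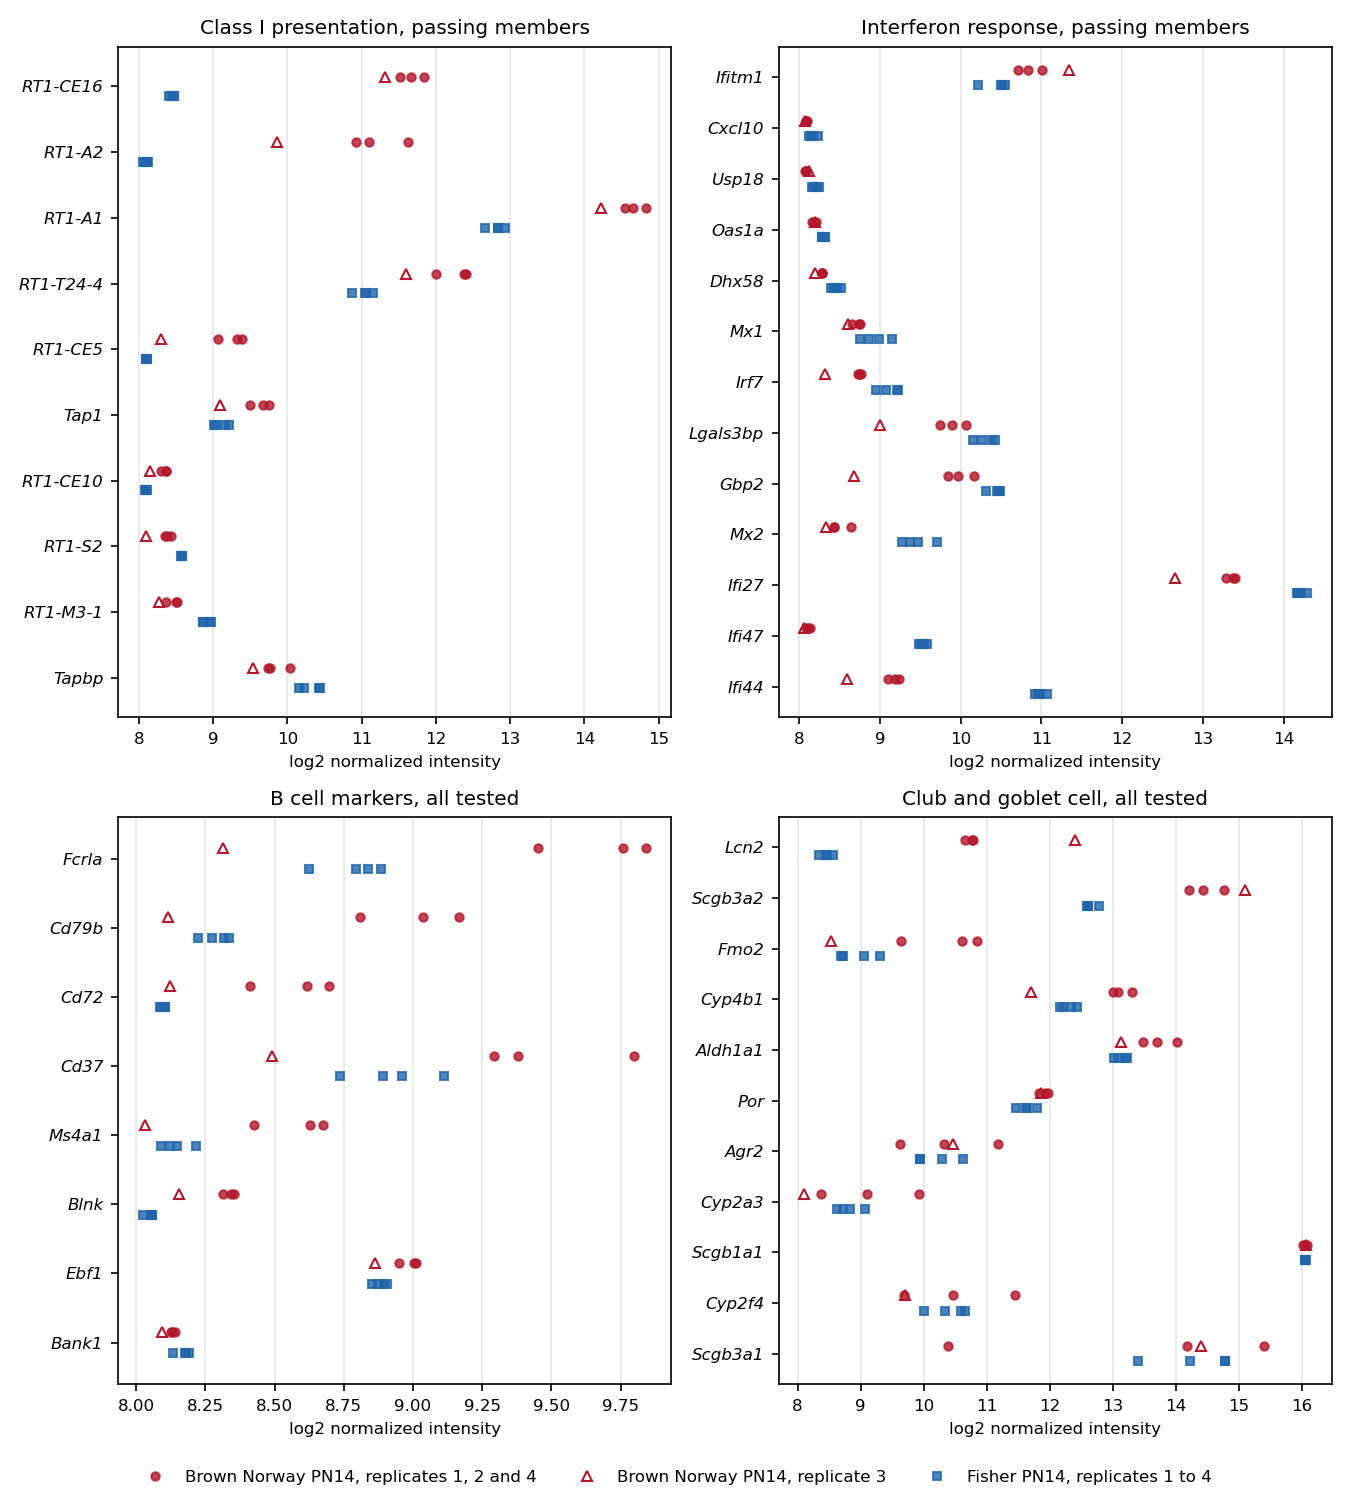
Each mark is 1 array, on a horizontal axis of log2 normalized intensity, with Brown Norway PN14 in red (replicate 3 as an open triangle) above Fisher PN14 in blue. The panels show the 10 class I presentation genes and the 13 interferon response genes that passed, and all 8 B cell and 11 club and goblet cell genes tested. In the B cell panel replicate 3 lies at the Fisher level or below it, apart from Cd72 and Blnk, where it lies just above.

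The markers of B lymphocytes that passed were higher in Brown Norway. Of 8 tested B cell genes, 4 passed higher and 0 lower with all arrays, and 6 and 0 without replicate 3 (medians 0.31 and 0.46). Cd79b, a signalling chain of the B cell receptor, read 9.17, 9.04, 8.11 and 8.81 in Brown Norway and 8.34, 8.27, 8.32 and 8.22 in Fisher, a difference of 0.49 (adjusted p = 0.00972) with all arrays and 0.72 (adjusted p = 6.5e-07) without replicate 3. Ms4a1, which encodes CD20, read 8.68, 8.63, 8.03 and 8.42 in Brown Norway and 8.22, 8.15, 8.12 and 8.09 in Fisher (0.30, and 0.43 without replicate 3). Replicate 3 was below every Fisher array in both genes, and the other Brown Norway arrays were above every Fisher array. The adaptor gene Blnk and the surface receptor gene Cd72, both detected on 3 Brown Norway arrays and on 0 Fisher arrays, were at least 1.11-fold and 1.25-fold higher. Fcrla (0.90) and Cd37 (0.57) passed only without replicate 3. Without background correction 2 of the 8 passed with all arrays and 6 without replicate 3.

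The B cell genes were also compared between ages. Without replicate 3, the Brown Norway minus Fisher difference was higher at PN14 than at PN7 in 5 of the 8 genes, beside 1.45% of all probes, and higher than at PN1 in 4, beside 3.95%. With replicate 3 limma gave 0 for both ages, and in the deposited log2 values without replicate 3 the counts were 1 and 2. Of 14 T cell genes, 0 passed limma with or without replicate 3, and 0 had an unadjusted p under 0.05 with all arrays. Cd3g, a chain of the T cell receptor complex, read 9.95, 10.06, 8.49 and 9.56 in Brown Norway and 9.36, 9.25, 9.47 and 9.09 in Fisher (adjusted p = 0.879). Without replicate 3 its difference was 0.57 (adjusted p = 0.679), and each Brown Norway array left was above every Fisher array. The spread was estimated over all groups and ages, and the SE of the log2 difference was 0.61 for Cd3g and 0.51 for Cd3d. In such genes the test could miss differences of the size seen in the B cell genes.

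The mast cell genes that passed were higher in Brown Norway, apart from Kit. Kit, the receptor for stem cell factor that mast cells and melanocytes need, read 9.18, 8.87, 8.74 and 8.88 in Brown Norway and 9.99, 10.53, 10.04 and 10.16 in Fisher (2.4-fold lower, adjusted p = 5.73e-08). The granule protease genes went the other way at low levels. Mcpt10 read 8.79, 8.91, 8.35 and 8.54 in Brown Norway and 8.17, 8.17, 8.25 and 8.14 in Fisher, higher by 0.47 (adjusted p = 1.44e-05). Tpsab1, Cpa3 and Mcpt1 also passed higher, each detected on 3 or 4 Brown Norway arrays and on 0 Fisher arrays, and were at least 1.18-fold, 1.17-fold and 1.11-fold higher. Kit was thus well above background on Fisher arrays that did not detect these proteases, and which cells gave its signal was not tested. Of 11 tested mast cell genes, 4 were higher and 1 lower, and 5 and 1 without replicate 3 (medians 0.19 and 0.24).

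Monocyte and macrophage genes had 5 of 30 lower (16.7%) and 1 higher (3.33%), and 4 and 1 without replicate 3 (medians -0.09 and -0.09). Ly6c, a surface protein of inflammatory monocytes, read 9.28, 9.32, 8.57 and 9.12 in Brown Norway and 11.15, 11.25, 11.13 and 11.06 in Fisher (4.22-fold lower, adjusted p = 1.11e-12). Aif1, the macrophage protein Iba, and the complement component C1qa both differed by -0.50 (adjusted p = 0.00134 and 0.025). Under median scaling 1 passed lower and 1 higher. Neutrophil genes had 1 higher (6.25%), Lcn2, and 1 lower (6.25%), Cybb, of 16, and 1 and 1 without replicate 3. Cybb, the catalytic chain of the phagocyte oxidase, differed by -0.41.

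Complement and coagulation genes passed in both directions. C6, a component of the membrane attack complex, read 8.49, 8.47, 8.56 and 8.54 in Brown Norway and 10.05, 9.96, 10.31 and 10.48 in Fisher (3.22-fold lower, adjusted p = 1.63e-11). C1s, the protease that starts the classical pathway, read 10.02, 10.12, 9.31 and 10.28 in Brown Norway and 11.44, 11.56, 11.32 and 11.37 in Fisher (2.81-fold lower, adjusted p = 2.25e-06). The strains did not overlap in either gene. Cfb, of the alternative pathway, differed by -0.62 and C1r by -0.45, while C1r did not pass without replicate 3 (-0.32). Cfi, the protease that inactivates complement, was 0.73 higher. The protein C receptor gene Procr and the plasminogen activator gene Plat were 0.58 and 0.53 higher. Of 24 genes 3 (12.5%) were higher and 5 (20.8%) lower, and 3 and 4 without replicate 3.

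The airway secretory genes that passed were higher in Brown Norway. Scgb3a2, a secretoglobin of club cells, read 14.43, 14.21, 15.10 and 14.77 in Brown Norway and 12.58, 12.60, 12.78 and 12.60 in Fisher (3.96-fold, adjusted p = 1.79e-10). Lcn2, a secreted protein that binds bacterial iron carriers and is made by airway epithelium and neutrophils, read 10.65, 10.77, 12.39 and 10.79 in Brown Norway and 8.34, 8.45, 8.56 and 8.46 in Fisher, 6.48-fold higher with all arrays and 4.88-fold without replicate 3. In both genes replicate 3 was the highest array and the other 3 were still above every Fisher array. Of 11 club and goblet cell genes, 2 were higher and 0 lower, and 5 and 0 without replicate 3 (medians 0.26 and 0.32).

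The other 3 are metabolic enzymes of club cells and read low in replicate 3. Fmo2, a flavin monooxygenase, read 10.61, 10.84, 8.53 and 9.64 in Brown Norway and 8.73, 8.68, 9.05 and 9.31 in Fisher, a difference of 0.96 (adjusted p = 0.0611) with all arrays and 1.43 (adjusted p = 0.000942) without replicate 3. Cyp4b1, a cytochrome P450, and Aldh1a1, which makes retinoic acid, differed by 0.85 and 0.60 without replicate 3. Among 45 enzymes that handle foreign compounds and oxidants, 3 (6.67%) were higher and 6 (13.3%) lower, and 8 (17.8%) and 4 (8.89%) without replicate 3. Aox1, aldehyde oxidase, was 2.01-fold lower (8.51, 8.54, 8.36 and 8.60 in Brown Norway against 9.41, 9.55, 9.54 and 9.55 in Fisher), and the peroxiredoxin gene Prdx1 was 0.38 higher. Surfactant and alveolar type II genes had 1 higher (7.69%) and 1 lower (7.69%) of 13, and 1 and 0 without replicate 3. The lower one was the surfactant protein gene Sftpa1, at -0.38 (adjusted p = 0.0455), or -0.31 (adjusted p = 0.150) without replicate 3. Ciliated cell genes had 0 of 14 in limma with and without replicate 3, and 1 at an unadjusted p under 0.05 with all arrays.

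Matrix genes that passed were more often lower in Brown Norway, although the largest differences were higher. In a list of 31 collagens and elastic fibre proteins, 6 passed lower and 2 higher with all arrays and also without replicate 3 (medians -0.24 and -0.12), while median scaling gave 1 lower and 2 higher. Col3a1, a fibrillar collagen of distensible tissue, read 15.08, 15.14, 14.04 and 15.23 in Brown Norway and 13.88, 13.72, 13.82 and 13.83 in Fisher, a difference of 1.06 (adjusted p = 0.000398) with all arrays and 1.34 (adjusted p = 1.55e-06) without replicate 3. Fmod, fibromodulin, which binds collagen fibrils, read 12.34, 12.46, 12.58 and 12.34 in Brown Norway and 10.92, 11.03, 11.16 and 10.84 in Fisher (2.71-fold higher, adjusted p = 7.7e-11). Neither gene overlapped between the strains, although replicate 3 of Col3a1 lay only just above Fisher. Sparc, a calcium-binding matrix protein, differed by -0.75 and Col5a2 by -0.48.

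Elastin itself did not pass. Eln read 15.70, 15.83, 14.05 and 15.86 in Brown Norway and 15.82, 15.72, 15.80 and 15.74 in Fisher (adjusted p = 0.446), and without replicate 3 its difference was 0.02 (adjusted p = 0.972). Col15a1 (-1.13, and -0.56 without replicate 3) and Col1a1 (-0.54 and -0.23) did not pass either. The proteoglycan genes Dcn, Ogn and Gpc4 differed by -1.02, -0.70 and -0.65 with all arrays. With differences of -0.66, -0.43 and -0.45, they did not pass without replicate 3. Of 21 proteoglycan and adhesive matrix genes, 1 (4.76%) was higher and 3 (14.3%) lower, and 1 and 0 without replicate 3.

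**Figure D4:**
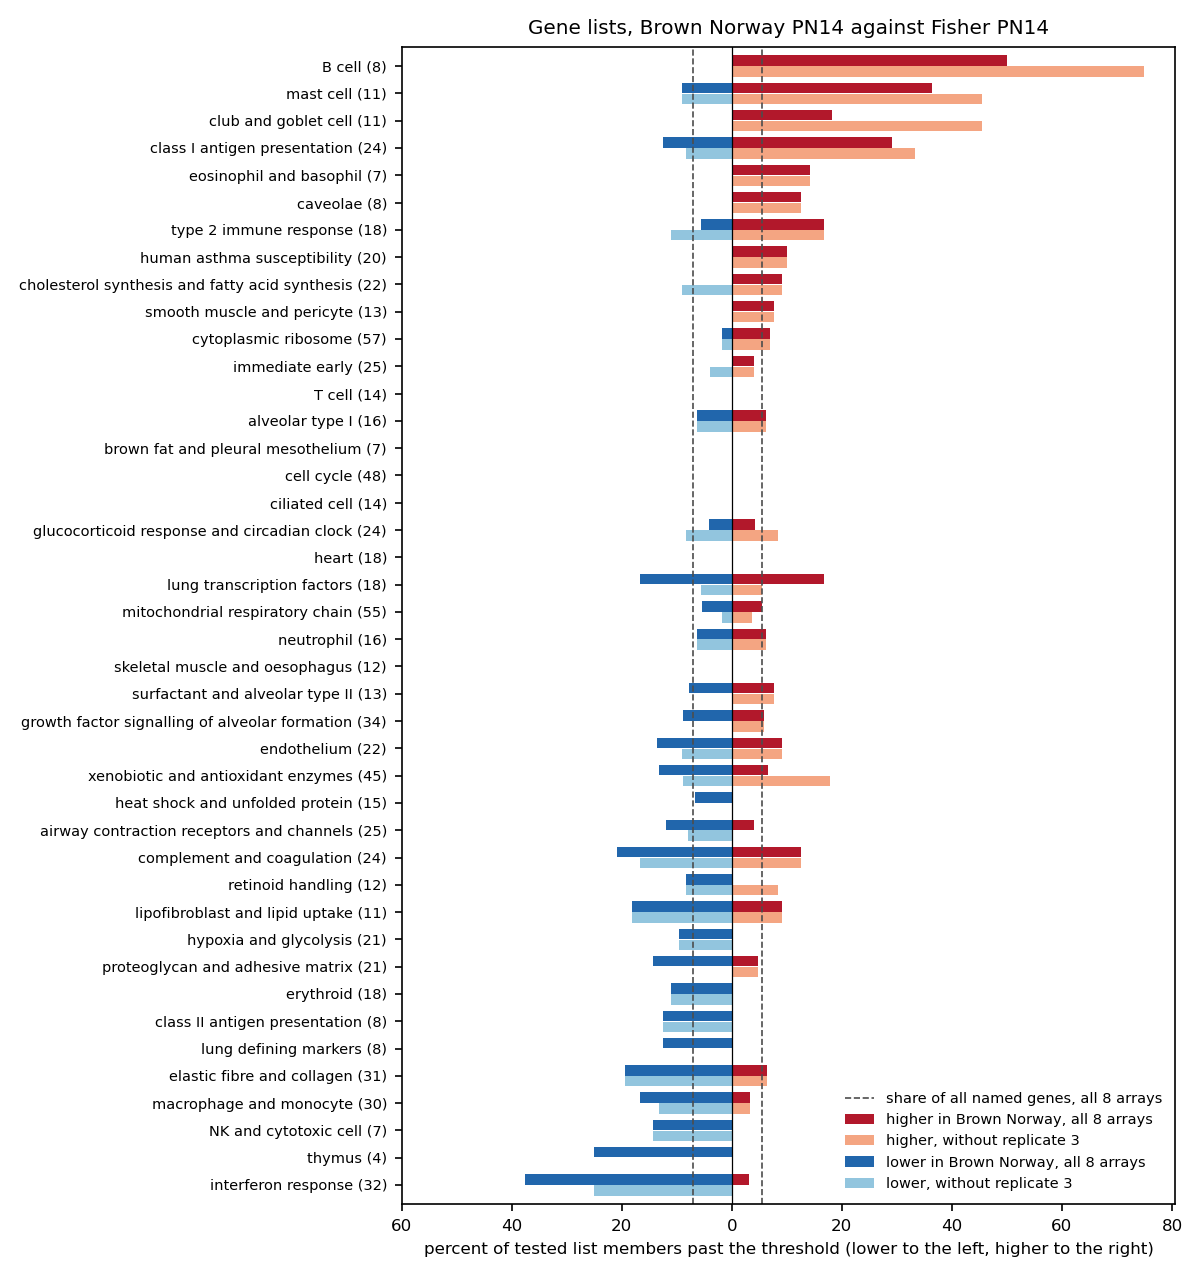
Bars give, for each gene list (with the number of tested members), the percent of members that passed limma higher (right) or lower (left) in Brown Norway PN14 than in Fisher PN14, with all 8 arrays (dark) and without replicate 3 (pale). The dashed lines mark the 5.43% higher and 6.97% lower of all named genes. The B cell, mast cell, club cell and class I lists reach farthest to the right, and interferon response farthest to the left.

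Vessel genes differed in single members. Nos3, the endothelial nitric oxide synthase, read 8.53, 8.72, 8.65 and 8.64 in Brown Norway and 9.99, 9.77, 9.79 and 9.67 in Fisher (2.25-fold lower, adjusted p = 5.71e-12). Lyve1, a hyaluronan receptor of lymphatic vessels, read 12.54, 12.69, 12.37 and 12.50 in Brown Norway and 11.46, 11.29, 11.59 and 11.89 in Fisher (1.95-fold higher, adjusted p = 2.21e-06). Cdh5, the adhesion protein between endothelial cells, differed by -0.52 (adjusted p = 0.000149). Of 22 endothelial genes 2 (9.09%) were higher and 3 (13.6%) lower, beside 5.43% and 6.97% of all named genes. Without replicate 3 the counts were 2 and 2.

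Genes of the type 2 immune response and of asthma were examined as lists. The type 2 cytokine genes Il4 and Il13 were above the detection limit on 0 of 36 arrays. Of 18 type 2 immune genes, 3 (16.7%) were higher and 1 (5.56%) lower, beside 5.43% and 6.97% of all named genes, and 3 and 2 without replicate 3. Socs5, a suppressor of cytokine signalling, read 10.20 on Brown Norway replicate 3, 10.87 to 11.01 on the other Brown Norway arrays and 9.10, 9.21, 9.07 and 9.17 in Fisher (3.11-fold higher, adjusted p = 6.28e-09). The eosinophil attractant gene Ccl11 read 9.06, 8.87, 8.12 and 8.73 in Brown Norway and 8.22, 8.27, 8.30 and 8.27 in Fisher, a difference of 0.43 (adjusted p = 0.0435) with all arrays and 0.63 (adjusted p = 0.000602) without replicate 3. Stat6, the transcription factor downstream of the receptor for both cytokines, differed by -0.30. It was detected on 1 Brown Norway array and 4 Fisher arrays, with standard deviations of 0.03 and 0.27. Its call was lost in the fit of only the arrays of the comparison and with the replicate block. The alarmin gene Il33 read 12.11, 12.35, 11.40 and 11.79 in Brown Norway and 12.41, 12.47, 12.34 and 12.39 in Fisher and did not pass (-0.49, adjusted p = 0.105).

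Of 20 human asthma susceptibility genes, 2 (10%) were higher and 0 lower with and without replicate 3. Nod1, a sensor of bacterial cell walls, differed by 0.37 (adjusted p = 0.00136). Of 25 receptors and channels of airway contraction, 1 (4%) was higher and 3 (12%) lower, and 0 and 2 without replicate 3. The adrenergic receptor gene Adra1b differed by -0.49, and the muscarinic receptor gene Chrm3 by 0.26 (adjusted p = 0.0178), or by 0.18 (adjusted p = 0.111) without replicate 3.

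Cell cycle genes did not pass at PN14, and their strain difference there departed from that at the younger ages. Of 48 tested, 0 passed limma in either direction at PN14, with and without replicate 3 (medians 0.01 and -0.04), and 2 higher and 2 lower had an unadjusted p under 0.05. Whether a strain difference at PN14 differed from that at another age was tested as an interaction. The ages of both strains lay on different slides, apart from 1 Brown Norway PN1 array on the PN14 slide. At each age the other arrays of both strains shared a slide, so a slide shift common to both strains drops out of their difference. A slide effect that differed between the strains cannot be told apart from one of age. Over all probes, 428 (3.77%) differed from PN7 and 513 (4.52%) from PN1, 91 (0.803%) and 369 (3.25%) of them upward and 337 (2.97%) downward against PN7, where median scaling gave 1 of 169 and 227 of 250. In the cell cycle list 43 of 48 genes had a lower signed Brown Norway minus Fisher difference at PN14 than at PN7 and 44 a higher one than at PN1, with 0 in the other direction for either age. Leaving out replicate 3 gave 43 (3.48% of all probes) and 45 (3.95%), and leaving out the array labelled Brown Norway PN1 replicate 5 as well gave 45 (7.11%) against PN1. Median scaling gave 34 and 37.

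Ttk, a kinase of the spindle checkpoint, differed by -1.52 at PN1, by 1.68 at PN7 and by 0.18 at PN14, where it read 8.51, 8.37, 8.85 and 8.65 in Brown Norway and 8.51, 8.33, 8.43 and 8.40 in Fisher. Bub1b, of the same checkpoint, differed by -1.38, 0.89 and 0.04 at PN1, PN7 and PN14. Mki67, the standard marker of dividing cells, differed by -0.81, 0.42 and 0.00 at these ages and read 8.22 to 8.42 in Brown Norway and 8.30 to 8.36 in Fisher at PN14. All 3 genes were low at PN14 in both strains. Mxd3, a repressor expressed in dividing cells, and Iqgap3, a scaffold protein of growing cells, followed the same order, at -1.86, 1.19 and 0.10 and at -1.06, 0.67 and 0.01.

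Clec2l, a C-type lectin, had a strain difference that grew with age. It was -0.35 at PN1, -0.67 at PN7 and -1.71 at PN14, where it read 8.62, 8.64, 8.33 and 8.57 in Brown Norway and 10.10, 10.48, 10.19 and 10.25 in Fisher. The PN14 difference was larger in size than that at PN7 (interaction -1.04, adjusted p = 4.41e-07) and at PN1 (-1.37, adjusted p = 1.17e-10). Mx2 stood at -0.15, -0.25 and -0.996 at the 3 ages (adjusted p = 5.46e-05 against PN7 and 1.12e-06 against PN1). Ly6c, at -1.01, -1.73 and -2.08, differed from PN1 (adjusted p = 0.000346) but did not pass against PN7 (adjusted p = 0.43). The PN1 interactions of these 3 genes also passed without both doubted arrays. Among the 30 leading genes, 5 passed the interaction against PN7 and 4 that against PN1. Washc3, which passed neither, stood at 3.56, 3.17 and 3.30, and Cavin2, likewise, at 3.07, 3.26 and 3.14.

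The circadian and glucocorticoid-responsive regulator Klf9 had a strain difference of 2.05, -0.55 and 0.57 at PN1, PN7 and PN14. At PN14 it read 13.72, 14.05, 13.83 and 13.58 in Brown Norway and 13.08, 12.91, 13.15 and 13.76 in Fisher, with 1 Fisher array within the Brown Norway range. The clock repressor gene Nr1d1 read 10.11, 10.38, 9.14 and 9.87 in Brown Norway and 9.52, 8.57, 8.65 and 9.61 in Fisher and passed only without replicate 3 (1.04, adjusted p = 0.0433). The labels do not give the hour at which lungs were taken. Of 24 glucocorticoid and clock genes, 1 (4.17%) was higher and 1 (4.17%) lower, and 2 (8.33%) and 2 (8.33%) without replicate 3.

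**Figure D5:**
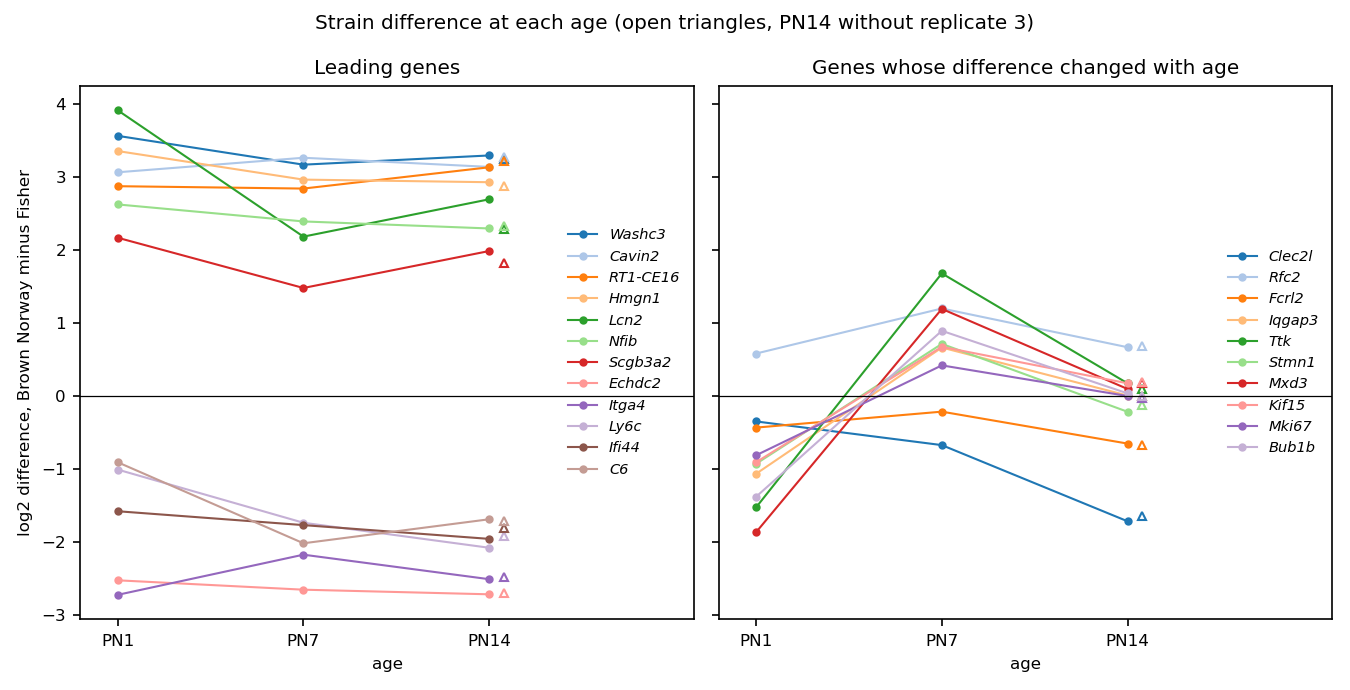
Lines join the log2 difference, Brown Norway minus Fisher (vertical axis), at PN1, PN7 and PN14 (horizontal axis) for 12 leading genes (left) and for 10 genes with the smallest interaction p-values that passed with and without replicate 3 (right). Open triangles give PN14 without replicate 3. The leading genes keep their sign at each age, and the dividing-cell genes Iqgap3, Ttk, Stmn1, Mxd3, Kif15, Mki67 and Bub1b lie below 0 at PN1, above 0 at PN7 and near 0 at PN14.

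The Lewis arrays of PN14 show on which side of the contrast a gene stood out. Lewis PN14 replicate 1 lay on another slide than the Brown Norway and Fisher PN14 arrays. The Lewis means are set beside values already given, since Lewis differences share the Brown Norway or Fisher arrays. Lewis averaged 11.69 for Washc3, 14.25 for Hmgn1, 11.25 for Slco1a5, 14.67 for Scgb3a2 and 11.82 for Lcn2, closer to the Brown Norway mean of each than to the Fisher mean. For Lcn2 this is above the 3 Brown Norway arrays other than replicate 3 and below replicate 3. Lewis averaged 9.50 for Cavin2, 8.27 for RT1-CE16, 12.74 for RT1-A1, 11.23 for Nfib, 10.75 for Echdc2, 10.84 for Itga4 and 11.21 for Ly6c, closer to the Fisher mean. For Clec2l, C6, Mx2 and Nos3 it averaged 8.60, 8.67, 8.40 and 8.49, closer to the Brown Norway mean, and for Ly6i 10.17, between the strains.

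Genes of tissues that a lung sample can carry along were examined as well. The mean of 18 heart genes was 9.48 to 10.51 on the Brown Norway arrays and 8.92 to 9.45 on the Fisher arrays, so the groups did not overlap. None of the 18 passed limma with or without replicate 3, 3 had an unadjusted p under 0.05, and 1 passed in the deposited log2 values. Myh6, the atrial and ventricular myosin heavy chain, read 13.22, 13.46, 13.26 and 14.65 in Brown Norway and 12.53, 12.44, 13.21 and 12.11 in Fisher (1.08, adjusted p = 0.34). What part these genes have in the other differences was not tested. Red cell genes had 0 higher and 2 lower of 18, with and without replicate 3. Hbb-b1, an adult beta globin, read 14.32, 14.31, 15.11 and 14.53 in Brown Norway and 15.86, 15.93, 15.82 and 15.96 in Fisher (2.5-fold lower, adjusted p = 0.005), while Hbb read 16.06 to 16.11 on all 8 arrays, near the top of the scale. Of 4 thymus genes, 1 passed lower and 0 without replicate 3. It was Arpp21 (-0.12, adjusted p = 0.0374), detected on 0 Brown Norway arrays and 1 Fisher array. Skeletal muscle and oesophagus genes (12) and brown fat and mesothelium genes (7) had 0 that passed limma with or without replicate 3. With all arrays 0 of either list had an unadjusted p under 0.05. The brown fat and mesothelium list averaged 10.16, 9.607, 9.578 and 10.72 in Brown Norway and 9.455 to 9.772 in Fisher. Cidea of that list read 9.87, 8.98, 8.44 and 11.38 in Brown Norway and 8.33 to 8.71 in Fisher. Ucp1, a brown fat gene, differed by 1.18 with an SE of 1.34. Acta1, of skeletal muscle, read 8.68 to 10.66 in Brown Norway, 11.63 on Fisher replicate 2 and 8.30 to 8.48 on the other Fisher arrays.

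Some differences appeared only when replicate 3 was left out. Scgb1c1, another secretoglobin, read 10.45, 10.70, 8.38 and 10.31 in Brown Norway and 9.18, 9.28, 9.06 and 9.26 in Fisher, a difference of 1.29 (adjusted p = 0.00827) without replicate 3. Acot1, an acyl-CoA thioesterase, read 9.47, 9.50, 11.22 and 9.48 in Brown Norway and 10.30, 10.12, 10.62 and 10.73 in Fisher (-0.96, adjusted p = 0.033). In both genes replicate 3 lay on the far side of Fisher from the other Brown Norway arrays. Unc5c, a netrin receptor, stood at -0.78, Idi1, of isoprenoid synthesis, at -0.67 and Myc at -0.56 without it. At an adjusted p above 0.05, the differences of all 5 with all arrays were 0.76, -0.52, -0.42, -0.23 and -0.32.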

How the data were processed

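RNA of whole lung was read on Illumina rat beadchips, 36 arrays of 3 strains at 3 ages, grouped by the strain and age in their titles. The deposited signal intensity per probe is not normalized, and each has a deposited detection p-value. The deposited log2 values, made with lumi per the submitters' processing notes, served as an alternative, and 72 per-sample columns matched no sample and were not used. RNA was extracted with Trizol and amplified with MessageAmp, per the labels' protocols.

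Intensities were corrected by normexp from the detection p-values (offset 16), quantile normalized and put on the log2 scale with limma 3.58.1 in R 4.3.3. A probe was kept where 3 or more arrays detected it at p under 0.01 (11339 of 22226). Group means of the 9 groups were fitted over the 36 arrays with lmFit and eBayes, and p-values were adjusted by Benjamini-Hochberg over all tested probes at 0.05. The script was tested on simulated data. Of the probes, 13192 have 1 gene symbol, 0 several and 9034 none in the platform annotation, and 13156 matched RefSeq's gene table. A list's gene is its brightest probe. Where the dimmer strain was detected on 0 arrays, an "at least" fold is set against the lowest detected signal.

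Genes named are the 15 highest and 15 lowest that passed with and without replicate 3, up to 4 passing members of each of 42 gene lists (or 2 of a list with none), the 6 smallest p-values of each interaction, the 6 largest differences each way seen only without replicate 3, and some fixed markers. Other list members named were chosen after their values were seen. The members and lists were chosen with earlier results of these data known. Alternatives were median scaling, no background correction, other filters, slide and replicate blocks, the 8 arrays alone and leaving out arrays.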

Additional observations from a re-analysis of the deposited data

Results flagged for a closer look

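Among the 148 named genes, the 4 arrays of each strain were searched for 1 array whose gap to its nearest neighbour over the group's whole range exceeded Dixon's 95% critical value for 4 samples. This was met in 33 of 296 groups, and chance alone gives about 1 in 20. Some of the named genes were chosen because they passed only without replicate 3, so the tally over them is no evidence about that array. Over all 11339 tested probes, replicate 3 stood apart in 860 (7.58%) and each other array of both strains in 0.45% to 1.69%. Among the named genes the array labelled Brown Norway PN14 replicate 3 was the one apart in 20 groups. As the gap over the range, it stood apart on the high side in Lcn2 (0.925), Klf5 (0.876), Chrm3 (0.84), Pdk1 (0.892), Srebf2 (0.91), Acot1 (0.98), Unc5c (0.955), Idi1 (0.976) and Myc (0.896). It stood apart on the low side in Itga1 (0.969), Pyroxd2 (0.865), P2ry14 (0.867), Col3a1 (0.875), Ogn (0.838), Gata5 (0.952), Ifi27 (0.847), Socs5 (0.833), Gucy1b1 (0.836), Scgb1c1 (0.833) and Eln (0.911).

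Other Brown Norway arrays stood apart in Ankra2 on replicate 2 (0.933), Myh6 on replicate 4 (0.835), Kif15 on replicate 4 (0.96) and Hbb on replicate 1 (1). Fisher arrays stood apart in Ly6i on replicate 1 (0.853), Scgb3a2 on replicate 3 (0.907), Ogn on replicate 2 (0.847), Cpa3 on replicate 3 (0.922), Blnk on replicate 2 (0.906), Aox1 on replicate 1 (0.892), Acta1 on replicate 2 (0.946), Myc on replicate 4 (0.874) and Scgb1a1 on replicate 1 (1). Hbb and Scgb1a1 lie near the top of the scale, where the range is narrow.

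The strain difference at PN14 differed from that at PN7 in 21 named genes by limma's interaction test at an adjusted p under 0.05. The log2 difference (Brown Norway minus Fisher) at PN14 minus that at PN7 was above 0 in Slco1a5 (1.278), Ankra2 (0.4824) and Klf9 (1.126). It was below 0 in Clec2l (-1.043), Rtel1 (-0.5968), Ifi47 (-0.425), Tubb4b (-0.4711), Mycn (-0.6207), Pcna (-0.5759), Mx2 (-0.7428), Adra1b (-0.5736), Ndufaf5 (-0.6151), Rfc2 (-0.5307), Fcrl2 (-0.4374), Iqgap3 (-0.6582), Ttk (-1.506), Stmn1 (-0.9299), Mxd3 (-1.097), Kif15 (-0.5), Mki67 (-0.42) and Bub1b (-0.8572).

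Against PN1 the strain difference also differed in 21 named genes. The log2 difference at PN14 minus that at PN1 was above 0 in Tubb4b (0.3976), Igf1r (0.5182), Stat6 (0.392), Iqgap3 (1.071), Ttk (1.699), Stmn1 (0.7122), Mxd3 (1.962), Kif15 (1.081), Mki67 (0.8114) and Bub1b (1.416). It was below 0 in Ly6c (-1.071), Clec2l (-1.368), C6 (-0.7812), Ifi47 (-0.3465), RT1-DMb (-0.4415), Mx2 (-0.8502), Klf9 (-1.482), Pdia4 (-0.4289), Aox1 (-0.7302), Gsta4 (-0.2886) and Fcrl2 (-0.2189). For genes lower in Brown Norway, such as Clec2l, Mx2 and Ly6c, a value below 0 is a difference larger in size at PN14. Apart from Brown Norway PN1 replicate 5, the ages of both strains lay on different slides. With the slide as a block, 457 probes passed the interaction against PN7 and 603 that against PN1. Without that block 428 and 513 passed, and what further part the slides have in these differences was not tested.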

How the results depend on the processing

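With all arrays 1419 probes passed. Median scaling gave 645 and a fit of only the 8 arrays 940. Without replicate 3, where 1314 passed, median scaling gave 857, and 1579 passed without Brown Norway PN1 replicate 5 as well. Leaving out 1 more array gave 872 to 1194, the lowest without Brown Norway PN14 replicate 2. Leaving out 1 array at a time gave 1079 to 1341 for the comparison of all arrays, 320 to 558 for the interaction with PN7 and 435 to 721 for that with PN1. Median scaling gave 169 and 250 for these interactions, against 428 and 513. Leaving out Brown Norway PN14 replicate 3 and PN1 replicate 5 together gave 755 and 1586. The cause of these shifts was not tested, and the settings that leave out arrays also hold fewer of them. The other counts, with no background correction, the deposited log2 values, other filters on dim probes and the slide as a block, were within 1.5 times. The strains' replicate numbers do not pair the arrays: the deviations of same-numbered arrays correlated at 0.054, -0.231, -0.227 and -0.210. With the replicate block 415 probes passed, and 668 without replicate 3, and not every array correlated best with its own number.

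Of 110 named genes that passed, 47 passed in every setting. Median scaling lost 40, the fit of 8 arrays 34, the replicate block 57 and leaving out replicate 3 20, and 0 of the 110 reversed in any setting. Nod1, Prdx1, Aif1, Chrm3, Klf9, Tpsab1 and C1qa were among those lost under median scaling, and Cd79b, Ms4a1 and Ccl11 among those lost without background correction.

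Signs turned only in genes that did not pass. Under median scaling the difference was -0.0067 for Tppp3, -0.0064 for Mki67 and 0.107 for Scgb1a1. Mki67 was also -0.0095 without background correction, -0.052 in the deposited values and -0.025 without both doubted arrays, where Ccnd1 was 0.0090, Bub1b -0.0042 and Eln 0.024. With 1 array left out at a time, the difference ran from -0.027 to 0.084 for Tppp3, from -0.109 to 0.071 for Pcna, from -0.228 to 0.0091 for Ccnd1, from -0.00011 to 0.106 for Sprr1a, from -0.118 to 0.095 for Msln and from -0.021 to 0.025 for Iqgap3. It ran from -0.025 to 0.039 for Mki67, from -0.0041 to 0.074 for Bub1b, from -0.013 to 0.0080 for Scgb1a1, from -0.577 to 0.024 for Eln and from -0.143 to 0.0042 for Sftpc. Probes near background or near the top of the scale cannot show a difference at this signal, and 4 arrays a group limit the precision.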
